A study of Mus musculus with 6 samples.

Results

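The cytosolic ribosomal protein genes were examined in mouse embryonic stem cells (ESCs) and in mesendoderm and definitive endoderm cells derived from them. Members were the genes of the deposited gene tables whose symbol is that of a small-subunit (Rps) or large-subunit (Rpl) ribosomal protein or of a numbered relative with a final l, and the genes Rplp0, Rplp1, Rplp2 and Rpsa. A protein-coding RefSeq transcript was required and the kinase genes named after Rps6 were left out. This gave 84 members, 32 of the small and 52 of the large subunit, out of 24054 genes, of which 20619 have a protein-coding RefSeq transcript. Counts were available for 6 samples, 2 independent replicates of each of 3 populations. All 6 came from a single double knock-in (DKI) ESC line that carries Foxa2-Venus on 1 allele (heterozygous) and Sox17-Cherry on both (homozygous), 2 fusions of an endoderm transcription factor with a fluorescent protein. The d0 cells were undifferentiated ESCs sorted as negative for both reporters. The d3F cells (Foxa2-Venus positive, Sox17-Cherry negative) and the d5FS cells (positive for both) were sorted after 3 and 5 days in endoderm medium with Wnt3a and Activin A. The sorting markers are thus bound to the time in culture, and each population is a sorted fraction of 1 line.

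A ribosome consists of ribosomal RNA and ribosomal proteins, nearly all of which are present as a single copy in every particle. The genes for these proteins are expressed in all cells, and their mRNAs typically begin with an oligopyrimidine tract (TOP), a C at the first base followed by a run of C and T, through which their translation is adjusted to growth signals. A few ribosomal protein genes have a paralog with a restricted pattern of expression, such as Rpl10l and Rpl39l in male germ cells and Rpl3l in muscle.

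The first bases of those members on which the results turn are shown from 10 bases before to 19 bases after the annotated RefSeq start (GRCm38.p6, transcript strand, the start itself being the base after the first 10). Capitals mark a stretch of at least 7 bases made of a C followed by C or T. The pairs Rpl10 and Rpl10l and Rpl39 and Rpl39l are given because only the second gene of each pair fell, and Rpl7l1 because it fell as well. Rps12, the member with the highest level, Rps6, the target of S6 kinase, and Rps16, whose replicates stood apart, are given for comparison.
Rpl10, chrX:74270806-74270835 (+): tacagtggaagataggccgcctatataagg
Rpl10l, chr12:66284382-66284411 (-): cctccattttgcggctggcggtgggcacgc
Rpl39, chrX:37085203-37085232 (-): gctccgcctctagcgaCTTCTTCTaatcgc
Rpl39l, chr16:10170218-10170247 (+): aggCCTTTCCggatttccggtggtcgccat
Rpl7l1, chr17:46782637-46782666 (-): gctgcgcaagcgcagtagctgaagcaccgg
Rps12, chr10:23787190-23787219 (-): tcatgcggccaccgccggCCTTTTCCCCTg
Rps6, chr4:86857348-86857377 (-): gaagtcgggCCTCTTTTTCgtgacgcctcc
Rps16, chr7:28350679-28350708 (+): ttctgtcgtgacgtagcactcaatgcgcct

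Such a stretch, on the transcript strand and beginning in this window of 30 bases, was found in 31 of the 64 members with a RefSeq promoter sequence (48.4%) and in 4877 of 27025 genes in all (18%). On the opposite strand the same letters lay within the window in 4 of the 64 members (6.25%) and in 4844 of all genes (17.9%). For the other 20 members no promoter sequence was used here. The promoters of the members, taken as 300 bases around the start, held a median of 21.5 CpG against 8 over all genes. A match is a description of letters at an annotated start, and the RefSeq start can differ from other annotations. For Rps16 it is base 28350689 of chromosome 7, whereas GENCODE M21 places the start of the gene at 28350652.

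Expected counts summed to between 16457729 and 22768686 per sample, and 80 to 83 of the 84 members reached 10 CPM in each. The d0 and d5FS populations carried the markers of their labels. All 6 pluripotency genes tested, among them Pou5f1 and Nanog, fell from d0 to d5FS, and all 6 endoderm genes, among them Foxa2 and Sox17, rose. The mesendoderm genes T, Eomes, Mixl1, Gsc and Lhx1 summed to 32.9 and 10.3 CPM in d0, 403 and 326 CPM in d3F and 259 and 265 CPM in d5FS. All 5 rose from d0 to d3F and 2 fell from d3F to d5FS, while 4 were higher in d5FS than in d0. They thus set d3F apart from d0 more than from d5FS. Of 5 fibroblast markers, the collagen genes Col1a1, Col1a2 and Col3a1 rose from d0 to d5FS while Thy1 and Twist2 stayed at or below 3.17 CPM in every sample. CPM is the count scaled by the total of its sample, without regard to gene length, and TPM, used below to compare genes with each other, is scaled by length too. The summed level of the 5 fibroblast markers was 10.3 and 12.6 CPM in d0, 31.7 and 68.9 CPM in d3F and 215 and 187.5 CPM in d5FS. Its part in the results was not tested. The neuroectoderm markers Sox1 and Pax6 summed to at most 3.01 CPM. In bulk RNA a change in the share of a cell type and a change in RNA per cell cannot be told apart.

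To ask how much of the transcriptome the ribosomal protein genes take up, their expected counts were summed. They held 10.0% and 12.1% of all counts in the d0 samples, 10.1% and 11.4% in d3F, and 12.2% and 13.8% in those of d5FS. The means were 11.05% ± 1.43 in d0, 10.75% ± 0.877 in d3F and 13.0% ± 1.11 in d5FS (SD, n = 2). Both d5FS samples lay above all d0 and d3F samples, the lower d5FS sample only by the margin between 12.2% and 12.1%. With 2 samples against 2 an exact permutation test cannot give a two-sided p under 0.333, so no test was run on this value.

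The share of TPM, which is scaled by transcript length, ran in another order. It was 12.7% and 8.45% in the d0 samples, 12.6% and 9.49% in those of d3F, and 10.3% and 8.27% in those of d5FS, so that populations overlapped and the first replicate was the higher in each. Short RNAs without poly(A) tail, among them snoRNAs and the RNA components of RNase P, RNase MRP and telomerase, took 52.4% to 75.8% of all TPM and more in the second replicate of each population. When only the TPM of genes with a protein-coding RefSeq transcript was taken as the total, a choice made after seeing the data, the members held 27.85% and 29.65% in the d0 samples, 27.9% and 29.7% in those of d3F, and 35.6% and 35.7% in those of d5FS. On that scale the replicates of a population differed by less than 2 percentage points, and d5FS lay above d0 and d3F.

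**Figure D1:**
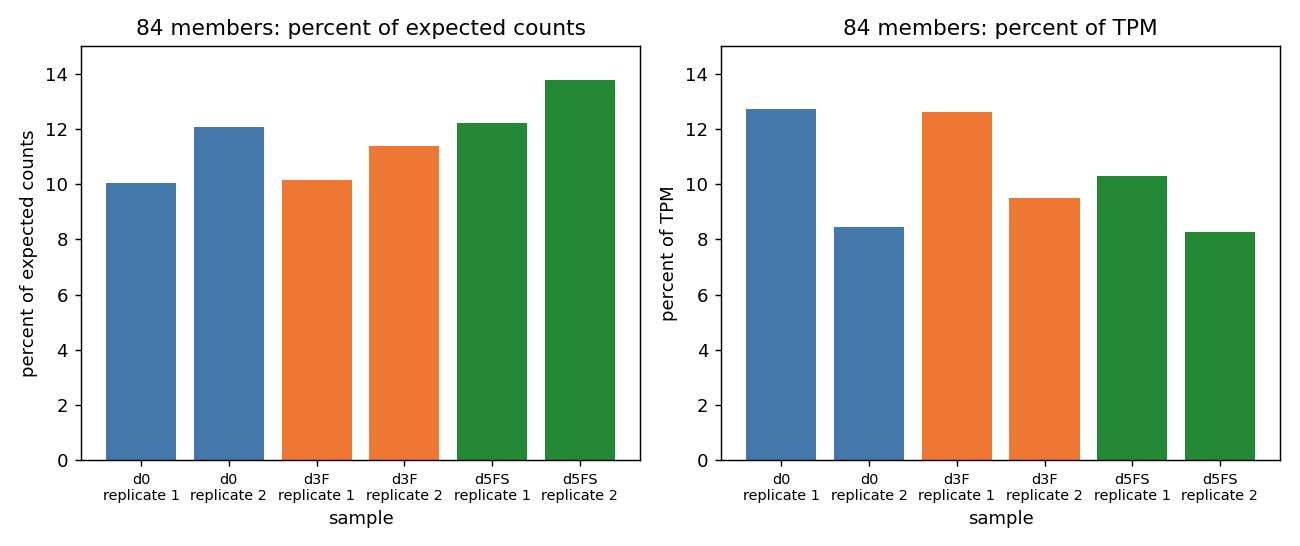
Share of the 84 ribosomal protein genes in all expected counts (left, percent) and in all TPM (right, percent) for each of the 6 samples, with bars coloured by population. On counts the d5FS bars are the highest at 12.2% and 13.8%, whereas on TPM the populations overlap.

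The members spanned a wide range of levels. Over all 6 samples the median member had a mean of 1215 TPM, and 64 of 84 lay between 500 and 2500 TPM. The highest were Rps12 with a mean of 3832 TPM, Rpl41, the shortest of the ribosomal proteins, with 3461 TPM, Rplp1, an acidic protein of the ribosomal stalk, with 3193 TPM, Rpl39 with 3105 TPM and Rpl38, a large-subunit protein known for its role in Hox mRNA translation, with 2556 TPM. Rps12 had 2535 and 3049 CPM in d0, 2445 and 2581 CPM in d3F and 2539 and 3089 CPM in d5FS, and the samples of the 3 populations overlapped. At the low end stood the paralogs Rpl3l (0.095 TPM), Rpl10l (2.96 TPM) and Rpl39l (3.50 TPM), followed by Rps27 (13.01 TPM) and Rpl7l1 (44.0 TPM). Rpl3l had between 0.132 and 0.764 CPM in 4 samples and 0 counts in the second replicates of d3F and d5FS, which allows up to 0.145 and 0.171 CPM (3 counts, counting error only). It was the only member too low to be tested.

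**Figure D2:**
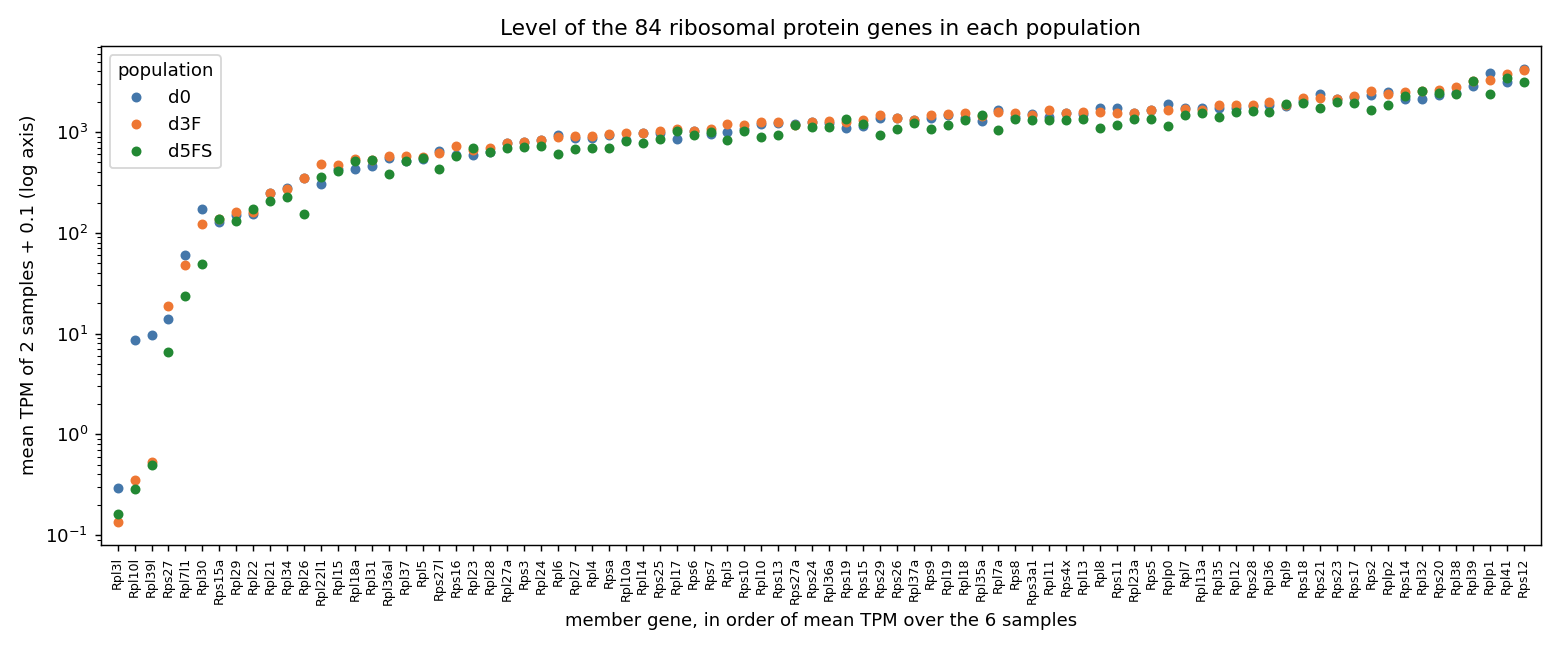
Mean TPM of the 2 samples of each population plus 0.1 (log axis) for the 84 members in order of their mean over the 6 samples. Rpl10l and Rpl39l have d0 points far above their d3F and d5FS points, and for most other members the 3 points lie close together.

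Rps27 is a case in which the level of the listed gene does not show the level of its sequence. It had 5.78 to 11.0 CPM, whereas Rps27rt, an annotated retrogene copy on chromosome 9 that shares 46.2% of its 50-base words with Rps27, was assigned reads at 826 to 1336 CPM. Another 3 members were assigned fewer reads than a processed pseudogene that shares words with them: Rpl26 with a mean of 212 CPM against 765 CPM for Gm15772, Rpl30 with 83.5 CPM against 793 CPM for Gm12191, and Rpl34 with 180 CPM against 757 CPM for Rpl34-ps1. Reads from shared sequence can be split between such copies by the estimation, so the values of these 4 members are uncertain. In all, 72 of 84 members shared at least 10% of their words with another annotated gene, 17 of them with a gene listed in the tables. Rpl10l, Rpl39l and Rpl7l1 were not among the 72.

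The first comparison asked which members changed when ESCs became mesendoderm (d0 to d3F). Of 83 members tested, 2 fell, 0 rose and 81 did not pass the test. A call required an adjusted p under 0.05 (edgeR quasi-likelihood test, Benjamini-Hochberg over 14539 genes) and an absolute log2 fold change above 1. The 2 members that fell were the paralogs Rpl10l and Rpl39l. Over all genes tested, 1.9% were called lower and 2.8% higher, and 2 of 83 members is 2.41%.

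Rpl10l is an intronless relative of the X-linked Rpl10 and lies in a single exon on chromosome 12 (66283379 to 66284401, minus strand). It had 7.74 and 25.6 CPM in d0, 0.307 and 0.532 CPM in d3F and 0.365 and 0.513 CPM in d5FS. Both d0 samples lay above all others by a wide margin, and the d3F and d5FS samples overlapped. From d0 to d3F its log2 fold change was -5.45 ± 0.79 (SE, edgeR adjusted p = 0.0132), and from d0 to d5FS it was -5.40 ± 0.80 (edgeR adjusted p = 0.00441). Rpl10 itself, a protein of the peptidyl transferase region, had 1674 and 967 CPM in d0, 1655 and 1115 CPM in d3F and 1470 and 1465 CPM in d5FS. Its populations overlapped, with a log2 fold change of 0.06 ± 0.34 from d0 to d5FS (edgeR adjusted p = 0.912).

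Rpl39l, on chromosome 16 (10170226 to 10174911, plus strand), has 3 exons and is the relative of the X-linked Rpl39, a small protein at the exit tunnel. It had 5.79 and 22.9 CPM in d0, 0.659 and 0.242 CPM in d3F and 0.851 and 0.399 CPM in d5FS. As for Rpl10l, the second d0 replicate was the higher and the d3F and d5FS samples overlapped. The log2 fold change was -5.15 ± 0.88 in the step to d3F (edgeR adjusted p = 0.0187) and -4.71 ± 0.86 over the whole course to d5FS (edgeR adjusted p = 0.00881). Rpl39 had 984 and 1366 CPM in d0, 1062 and 1438 CPM in d3F and 1632 and 1920 CPM in d5FS. Both its d5FS samples were above all others, with a log2 fold change of 0.46 ± 0.38 from d0 to d5FS (edgeR adjusted p = 0.41). The pluripotency genes followed the same order of replicates in d0, with a summed 1305 and 2409 CPM. The part of this in the difference between the d0 replicates of the paralogs was not tested.

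Without the second d3F replicate neither paralog was called from d0 to d3F, and far fewer genes were called in all. The log2 fold change was then -5.97 for Rpl10l and -4.67 for Rpl39l. Without the first d3F replicate it was -5.02 and -5.93. From d0 to d5FS, Rpl39l missed the threshold without the first d5FS replicate (edgeR adjusted p = 0.0528) and without the second (edgeR adjusted p = 0.0599), whereas Rpl10l passed whichever sample was left out.

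The other members moved little from d0 to d3F. The 81 that were not called had log2 fold changes between -0.67 and 0.29, and the median over the 83 tested was -0.13 against -0.01 over all genes. It was 0.13 when the second d0 replicate was left out. On CPM scaled by the TMM factors, both d3F samples lay below both d0 samples for 11 members (13.3%) and above them for 1 (1.2%), while 24.2% of all genes lay below and 26.7% above. The small-subunit and large-subunit members had medians of -0.13 each.

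From mesendoderm to definitive endoderm (d3F to d5FS) 0 of 83 members were called by edgeR, with 1 at an unadjusted p under 0.05 (Rpl30), and 0 were called by the DESeq2 Wald test. Over all genes 1.08% were called higher and 0.461% lower, and 2635 of 14539 had an unadjusted p under 0.05 by edgeR. With the replicate number as a term, edgeR gave 14 members and 4016 of all genes at an unadjusted p under 0.05, and again called 0 members. The members had log2 fold changes between -0.81 and 0.60 with a median of 0.28, against 0.01 over all genes, and 70 of 83 were positive. Both d5FS samples lay above both d3F samples for 37 members (44.6%) and below them for 3 (3.61%), against 26.5% and 25.7% of all genes. The median was 0.25 between the samples numbered 1 and 0.26 between those numbered 2. Taken on mean TPM over all genes it was -0.23. The short RNAs without poly(A) tail took 52.7% and 66.2% of all TPM in d3F and 69.2% and 75.8% in d5FS, and their part in this value was not tested.

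Rpl22, an RNA-binding large-subunit protein, had the largest positive difference in this comparison. Its values were 599 and 670 CPM in d0, 620 and 627 CPM in d3F and 965 and 952 CPM in d5FS. Both d5FS samples were above all others, and the log2 fold change from d3F to d5FS was 0.60 ± 0.31 (edgeR adjusted p = 0.346). Its paralog Rpl22l1 had 122 and 256 CPM in d0, 255.5 and 255 CPM in d3F and 283 and 261.5 CPM in d5FS, with 0.07 ± 0.42 from d3F to d5FS. Rps19, a small-subunit protein mutated in Diamond-Blackfan anaemia, had 903 and 999 CPM in d0, 1042 and 998 CPM in d3F and 1729 and 1391 CPM in d5FS. Its d5FS samples were above all others too, and the log2 fold change from d3F to d5FS was 0.59 ± 0.31 (edgeR adjusted p = 0.366).

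Between the ends of the course (d0 to d5FS) 4 of 83 members fell, 0 rose and 79 did not pass. This is 4.82% called lower, against 10.4% of all genes called lower and 12.4% called higher. Beside Rpl10l and Rpl39l, these were Rpl30 and Rpl7l1. The comparison shares its d0 samples with that of d0 to d3F and its d5FS samples with that of d3F to d5FS. The 79 members not called had log2 fold changes between -0.97 and 0.71, and the median of the 83 was 0.15 against 0.02 over all genes. It ranged from -0.11 without the first d0 replicate to 0.41 without the second. Both d5FS samples lay above both d0 samples for 23 members (27.7%) and below them for 6 (7.23%), against 32.2% and 30.5% of all genes.

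Rpl7l1, on chromosome 17 (46773907 to 46782672, minus strand), is a relative of the large-subunit protein gene Rpl7. It had 289.5 and 309 CPM in d0, 217 and 224 CPM in d3F and 139 and 182 CPM in d5FS. The 3 populations did not overlap and d3F lay between the other two. From d0 to d5FS the log2 fold change was -1.02 ± 0.31 (edgeR adjusted p = 0.0475), close to both limits of the call. Leaving out any 1 of the 6 samples ended the call, with log2 fold changes between -1.28 and -0.80. Rpl7 had 2609 and 2403 CPM in d0, 2537 and 2191 CPM in d3F and 3207 and 2680 CPM in d5FS, and from d0 to d5FS its log2 fold change was 0.11 ± 0.31 (edgeR adjusted p = 0.822).

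Rpl30, on chromosome 15 (34440505 to 34443640, minus strand), encodes a large-subunit protein that lies at the contact with the small subunit. It had 106 and 135 CPM in d0, 79.6 and 84.7 CPM in d3F and 43.0 and 52.1 CPM in d5FS. Its populations did not overlap, with a log2 fold change of -1.47 ± 0.32 from d0 to d5FS (edgeR adjusted p = 0.0156). The processed pseudogene Gm12191 on chromosome 11 (49678710 to 49679057) shares 22.5% of the words of Rpl30 and had 687 and 756.5 CPM in d0, 775 and 604 CPM in d3F and 1021 and 913 CPM in d5FS. When the counts of both were summed, the log2 fold change was 0.14 ± 0.30 and did not pass (edgeR adjusted p = 0.775). As reads were assigned, this sum is mostly Gm12191, which alone had 0.29 ± 0.30. The sum does not depend on how reads were divided between Rpl30 and Gm12191, so it cannot tell from which of them they came. Whether the fall of Rpl30 lay in reads of shared sequence was not tested. Without the second d0 replicate or without either d5FS replicate Rpl30 was not called either (edgeR adjusted p = 0.0665, 0.101 and 0.0501).

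Rpl26, a large-subunit protein, did not pass the test in the fit over all 6 samples. It was called lower from d0 to d5FS by the Wald test of DESeq2 and, by edgeR, without the first d0 replicate. It had 206 and 309 CPM in d0, 219 and 244 CPM in d3F and 148 and 144 CPM in d5FS, with a log2 fold change of -0.97 ± 0.34 from d0 to d5FS (edgeR adjusted p = 0.0747). With its processed pseudogene Gm15772 added, the value was 0.38 ± 0.36 (edgeR adjusted p = 0.474). For Rps27 with Rps27rt it was 0.38 ± 0.30 after -0.52 ± 0.43 alone, and for Rpl34 with Rpl34-ps1 it was 0.33 ± 0.34 after -0.17 ± 0.37 alone. Hence all 4 of these members had a negative difference alone and a positive one with the copy added, and none of the 4 summed values passed the test. Each copy was assigned more reads than its member and had a positive difference alone. The sums do not depend on how reads were divided between copy and member, and whether that division was right was not tested. With the copies summed, 3 members were called from d0 to d5FS: Rpl10l, Rpl39l and Rpl7l1.

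**Figure D3:**
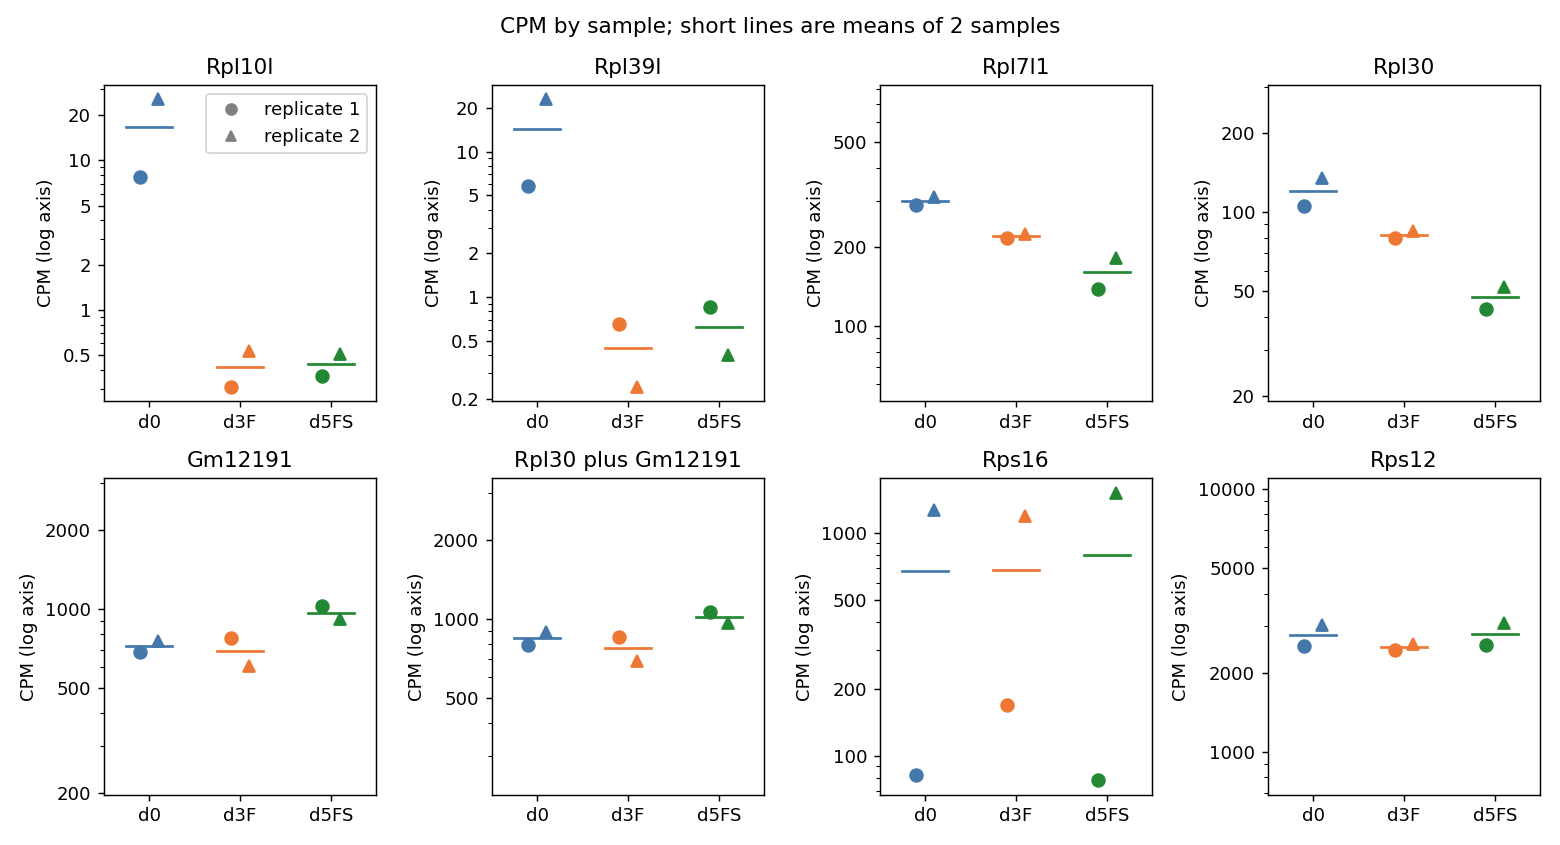
CPM (log axis) in each sample for the 4 members called from d0 to d5FS, for Gm12191 alone and added to Rpl30, and for Rps16 and Rps12; circles are first and triangles second replicates, and short lines are means of 2 samples. Rpl10l and Rpl39l drop below 1 CPM in d3F and d5FS, Rpl30 falls while its sum with Gm12191 does not, and Rps16 splits by replicate.

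Members with known separate roles were not called in any of the 3 comparisons. Rps6, the substrate of S6 kinase in the small subunit, had 2314 and 2718 CPM in d0, 2311 and 2398 CPM in d3F and 3033 and 3122 CPM in d5FS, with the d5FS samples above all others and a log2 fold change of 0.16 ± 0.33 from d0 to d5FS. The stalk proteins Rplp0, Rplp1 and Rplp2, which contact the elongation factors, had log2 fold changes from d0 to d5FS of -0.34 ± 0.38, -0.34 ± 0.36 and -0.10 ± 0.38. Rpl5 and Rpl11, which bind Mdm2 when they are free of the ribosome, had 0.27 ± 0.34 and 0.19 ± 0.42. Rpl11 ranged from 971 to 1777 CPM with the second replicate higher in every population, and the populations overlapped. Rps14, located on chromosome 18 and deleted in a form of human myelodysplasia, had 0.27 ± 0.52, and its replicates differed most in d0, at 1208 and 2648 CPM.

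The laminin receptor protein gene Rpsa had 2784 to 3527 CPM over the 6 samples and a log2 fold change of -0.14 ± 0.35 from d0 to d5FS. Rps27a, which is made as a fusion with ubiquitin, had 0.28 ± 0.32, Rpl24, whose loss in mice gives the Belly spot and tail phenotype, 0.19 ± 0.29, and Rpl38 0.38 ± 0.31. In the remaining paralog pairs the members that could be tested were not called. Rpl3l was not tested, and Rps4l is not one of the members. Rpl36a on the X chromosome and its relative Rpl36al had 0.26 ± 0.29 and -0.17 ± 0.29, Rps27l, a p53 target, -0.15 ± 0.30, Rpl3, the partner of Rpl3l, -0.01 ± 0.40, and Rps4x 0.09 ± 0.32. The adjusted p (edgeR) of the members in this paragraph lay between 0.403 and 0.99, which does not show that their levels were equal.

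The replicates of a population differed among the members in a repeated way. The study's sample list names 1 library of each population mRNA and the other total RNA, without the replicate number. The part of this in the differences was not tested. Rps16, a small-subunit protein near the decoding site, had 82.6 and 1265 CPM in d0, 169 and 1191 CPM in d3F and 77.9 and 1519 CPM in d5FS. The second replicate was thus the higher in every population, by a mean of 3.67 on log2(CPM + 0.5), whereas the next member, Rps29, differed by a mean of 1.11. No difference between populations was detectable against this spread, and from d0 to d5FS the log2 fold change was 0.07 ± 1.49 (edgeR adjusted p = 0.977). Of 8304 genes that reached 20 CPM, 3 differed by more than 2.5 on log2(CPM + 0.5) in the same direction in all 3 populations: Rps16, the histone gene Hist1h2ap and Lars2, the last with the first replicate higher. These 3 and Rps29 were singled out after their values had been seen. Leaving Rps16 out changed the median of the members by less than the spread between replicates. A single gene among many can move a median only to a neighbouring value, so this does not bear on the replicate pattern.

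The other members took part in the same pattern to a smaller degree. After TMM scaling the median of replicate 2 minus replicate 1 over the 83 members was 0.52 in d0, 0.26 in d3F and 0.24 in d5FS, while that of all genes was 0.00, -0.00 and 0.02. The second replicate was higher in all 3 populations for 54 members and lower in all 3 for 3. Among all genes these shares were 24.7% and 23.1%. Across the 83 members, log2 CPM ranked more alike between same-numbered samples of different populations (Spearman's rho 0.92 to 0.99, a description across genes that share their libraries) than between the 2 replicates of a population (0.89 to 0.92). Summed histone gene levels were also higher in the second replicate, at 32130 and 49741 CPM in d0, 33716 and 38530 CPM in d3F and 13132 and 25850 CPM in d5FS, and so were the short RNAs without poly(A) tail, at 43506 and 112672, 45209 and 83607, and 74302 and 81877 CPM. Their part in the member values was not tested.

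**Figure D4:**
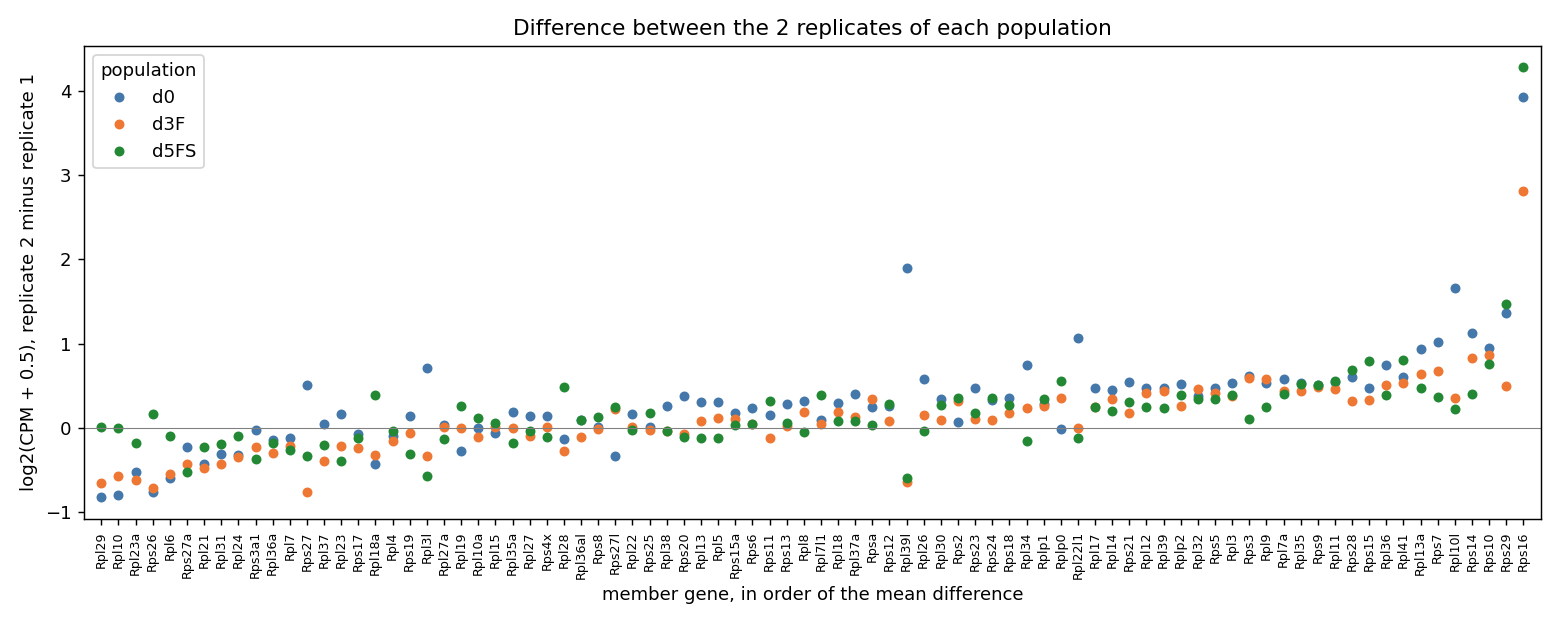
Replicate 2 minus replicate 1 on log2(CPM + 0.5) for each of the 84 members in d0, d3F and d5FS, ordered by the mean difference. Rps16 at the right end lies between 2.81 and 4.28 in all 3 populations, and most members are above 0.

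Many ribosomal protein genes carry a small nucleolar RNA in an intron, from which it is released after splicing. By GENCODE M21, 30 of the 84 members contained at least 1 annotated snoRNA gene on the same strand. From d0 to d5FS their median log2 fold change was 0.09, against 0.18 for the other members tested, and the same medians were 0.26 and 0.29 from d3F to d5FS.

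Genes that make or regulate ribosomes were set beside the members as lists. Over all genes, 10.4% were called lower and 12.4% higher from d0 to d5FS. Of 51 ribosome assembly genes, 30 fell from d0 to d5FS and 0 rose, with a median log2 fold change of -1.22. Among these, Dkc1, the pseudouridine synthase of box H/ACA particles, had 208 and 184 CPM in d0, 130 and 106.5 CPM in d3F and 46.1 and 52.8 CPM in d5FS (log2 fold change -2.10 ± 0.28 from d0 to d5FS, edgeR adjusted p = 0.00334). The populations did not overlap. Heatr1, Bop1 and Nol6, factors of ribosomal RNA processing, fell too, with log2 fold changes of -1.99, -2.23 and -1.94. Of 14 genes of RNA polymerase I and its factors, which transcribe the ribosomal RNA genes, 8 fell and 0 rose, with a median of -1.10. Polr1a, the largest subunit, fell by 1.65, the initiation factor Rrn3 by 1.56 and Ubtf by 1.52. Fewer assembly genes were called lower whichever sample was left out, and fewest without the first d5FS replicate. The number of genes called over all genes did the same. The assembly median stayed between -1.49 and -1.001 over all samples left out in turn. For RNA polymerase I the calls dropped in the same way, and the median stayed between -1.15 and -0.98. With the 2 populations fitted alone, 20 assembly genes and 5 of RNA polymerase I fell, and when DESeq2 tested for changes beyond 1 on the log2 scale these numbers were 4 and 0. The member median in the same comparison was 0.15, with 4 of 83 called lower.

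The other lists lay between these values. Their calls from d0 to d5FS stand against 10.4% of all genes called lower and 12.4% called higher. Of 77 mitochondrial ribosomal protein genes, 5 fell and 1 rose from d0 to d5FS with a median of -0.49. Mrpl23 was the gene that rose, at 44.2 and 35.0 CPM in d0 and 106 and 108 CPM in d5FS (log2 fold change 1.33 ± 0.27, edgeR adjusted p = 0.0129), and Mrpl18 had the lowest adjusted p of those that fell (-1.21 ± 0.29, edgeR adjusted p = 0.0206). When any sample other than the first d0 replicate was left out, fewer than 5 fell, and fewer genes were called in all. Mrpl23 and Mrpl18 were not called without the second d0 replicate or without either d5FS replicate. Of 17 translation factors and other TOP mRNAs 1 fell and 0 rose, with a median of -0.00. This was Eef1d, a subunit of the elongation factor exchange complex (-1.16 ± 0.34, edgeR adjusted p = 0.0428), which stayed past the threshold without the first d0 replicate but not without any other sample. The histone chaperone genes Nap1l1 and Npm1 had -0.82 ± 0.30 (edgeR adjusted p = 0.0788) and -0.67 ± 0.38 (edgeR adjusted p = 0.225), and Eef1a1, among the most abundant mRNAs of the cell, had 0.49 ± 0.36. Of 15 regulators of ribosomal protein synthesis 1 fell, Trp53 (-1.81 ± 0.43, edgeR adjusted p = 0.0205), and the median was -0.46. Trp53 was not called without the second d0 or the first d5FS replicate. Gabpa, the DNA-binding subunit of a transcription factor of the ETS family, had -0.76 ± 0.29 (edgeR adjusted p = 0.0872). Myc, an activator of ribosome synthesis, had -0.996 ± 0.412 (edgeR adjusted p = 0.112), and Mtor had -0.60 ± 0.28 (edgeR adjusted p = 0.155).

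In the shorter steps the edgeR fit over all 6 samples used for the calls above called 0 genes of these 5 lists. Without its filter on low counts it called 8 assembly and 3 RNA polymerase I genes lower from d3F to d5FS, out of 1423 genes called in all. In the step from d0 to d3F it then called 1 regulator lower, out of 1933. With d3F and d5FS fitted alone, 1 RNA polymerase I gene was called lower, out of 529. At an unadjusted p under 0.05, edgeR gave 14 assembly, 3 RNA polymerase I and 1 mitochondrial ribosomal protein genes from d0 to d3F, and 25, 5 and 2 in the same order plus 1 regulator from d3F to d5FS. The Wald test of DESeq2 called 1 assembly gene lower in the first step, and 6 assembly and 3 RNA polymerase I genes lower in the second. In all it called 1516 genes in the first step and 1094 in the second. From d0 to d3F the medians were -0.52 for ribosome assembly, -0.52 for RNA polymerase I, -0.24 for mitochondrial ribosomal proteins, -0.22 for regulators and -0.13 for TOP mRNAs, the last equal to that of the members. From d3F to d5FS they were -0.67, -0.48, -0.24, -0.21 and 0.11 in the same order, and the member median was 0.28.

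**Figure D5:**
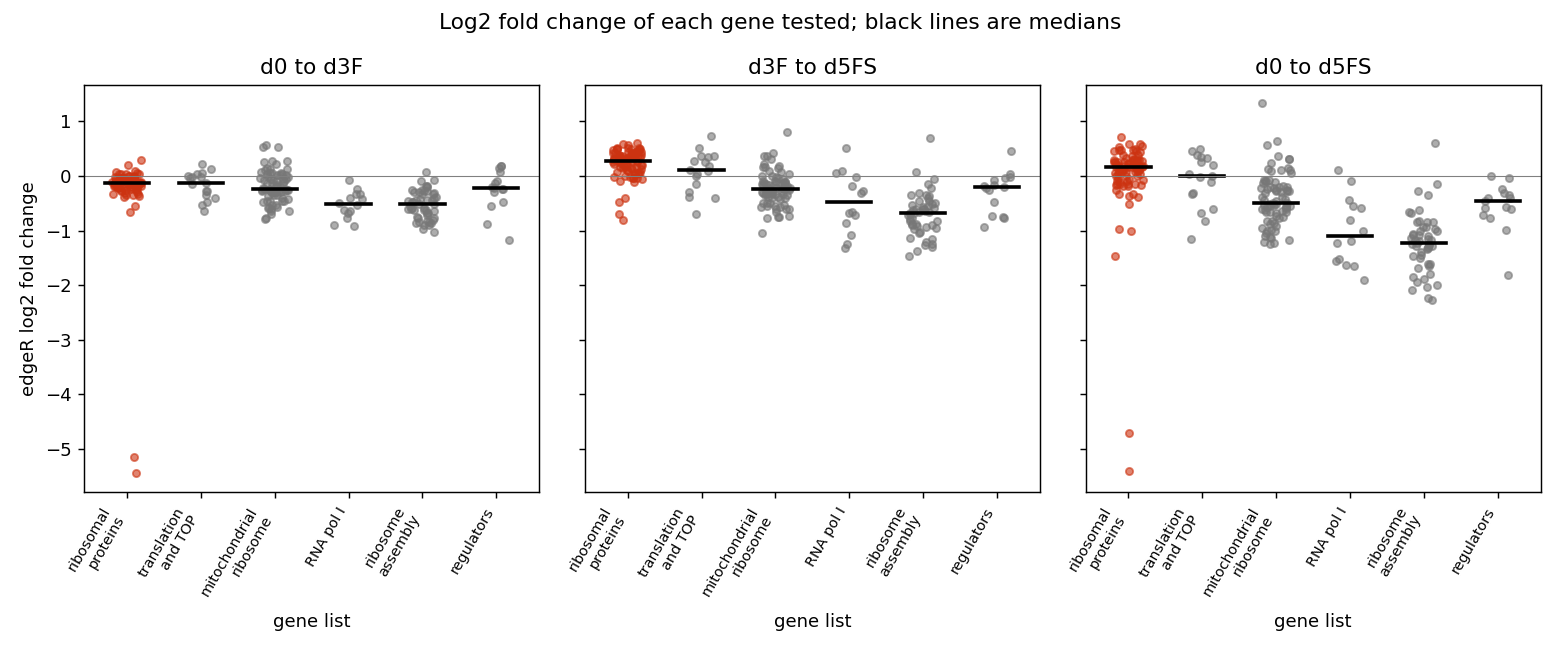
Log2 fold change (edgeR) of each gene tested in the ribosomal protein genes (red) and in 5 lists of related genes (grey) for the 3 comparisons, with black lines at the medians. From d0 to d5FS the member median is 0.15 and that of ribosome assembly genes -1.22, and 2 members, Rpl10l and Rpl39l, lie below -4.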

How the data were processed

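The 6 RNA-seq samples were grouped by their labels into d0, d3F and d5FS, with 2 independent replicates each. Total RNA was depleted of ribosomal RNA (Ribo-Zero Gold). The study's sample list names 1 library of each population mRNA and the other total RNA, without giving the replicate number. Reads were aligned by the authors to mm10 (GRCm38) with STAR and quantified with RSEM; versions and annotation release are not given in the sources used here. The authors deposited, per gene, expected counts (estimated counts, not normalized), TPM and FPKM values, both scaled by RSEM for transcript length and library size, and gene lengths. FPKM values were not used. Because TPM sums to a fixed total, members move against any abundant RNA, and multi-copy sequence is divided between genes by RSEM.

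Expected counts were rounded and fitted over all 6 samples with edgeR 4.0.16 in R 4.3.3 (filterByExpr, TMM, quasi-likelihood test, 3 residual degrees of freedom). This kept 14539 genes and 83 of the 84 members. CPM values are expected counts scaled by the sample's total, without TMM factors unless stated, and the SE was obtained from the log2 fold change and the F statistic (its absolute value over the root of F). A call needed an adjusted p (Benjamini-Hochberg) under 0.05 together with a log2 fold change beyond 1 in either direction. P-values measure only the spread between these samples. Alternatives were size factors or tests of DESeq2 1.42.0, TMM factors set without the members, library totals alone, no filter or a stricter filter on low counts, coding genes only, a fit of the populations compared, the replicate number as a term, each sample left out in turn and, added after seeing the data, copies summed, Rps16 left out and shares of coding TPM. The fits were tested on simulated data. These had the same relative spread for every gene and no replicate effect, so they were simpler than the real counts. A copy was summed with a member where it shared at least 10% of the member's 50-base words (GENCODE M21 transcripts) and had a higher mean CPM. Start sites and promoters are those of RefSeq.

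The members and lists were chosen with earlier results of these data known. Named were Rps16, the called members, the 5 highest and 5 lowest by mean TPM, 8 paralog pairs, 12 members with separate roles, and up to 4 genes of each other list by smallest adjusted p from d0 to d5FS. Rpl26, Rpl34, Rps29 and the genes counted with copies were added after their values were seen. Protein sequences were not used here.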

Additional observations from a re-analysis of the deposited data

Results flagged for a closer look

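Genes outside the member rule carried ribosomal protein sequence at levels far above 3 counts in every sample. Mean levels over the 6 samples were 1030 CPM for Rps27rt, 793 CPM for Gm12191, 765 CPM for Gm15772 and 757 CPM for Rpl34-ps1. Each of these 4 was assigned more reads than the member it resembles.

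Rps4l, a relative of the X-linked small-subunit gene Rps4x that GENCODE M21 lists as a transcribed processed pseudogene, had no protein-coding RefSeq transcript in the tables and was therefore no member. Its mean was 129 CPM. It had 205 and 299 CPM in d0, 107 and 90.6 CPM in d3F and 25.7 and 44.4 CPM in d5FS, and the populations did not overlap. From d0 to d5FS the log2 fold change was -2.98 ± 0.42 (edgeR adjusted p = 0.00375), while Rps4x had 0.09 ± 0.32 (edgeR adjusted p = 0.864). From d0 to d3F it was -1.48 ± 0.40 (edgeR adjusted p = 0.0714). With 2 samples per population no sample could be tested as standing apart from its group.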

How the results depend on the processing

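From d0 to d3F the number of called members was 0 with at least 10 counts required in every sample, since Rpl10l and Rpl39l then left the test, and lay between 0 and 2 when a sample was left out. From d0 to d5FS it was 2 with that filter, 2 with DESeq2 against a log2 fold change of 1, 5 with the DESeq2 Wald test, and between 1 and 4 when a sample was left out, where the median lay between -0.11 and 0.41. From d3F to d5FS it was 0 under every alternative. The member median from d0 to d3F lay between -0.35 and 0.13 and that from d3F to d5FS between 0.13 and 0.39 when a sample was left out. On the log2 of mean TPM plus 1 it was -0.23 in the step from d3F to d5FS and -0.19 over the whole course. Rpl30 had -1.47 alone from d0 to d5FS and 0.14 with the counts of Gm12191, which was assigned more reads, added.

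The share of the members was 12.9%, 12.5% and 15.1% of the counts of coding genes in d0, d3F and d5FS, 28.75%, 28.8% and 35.7% of the TPM of coding genes, and 9.29% of all TPM in d5FS. With the replicate block, that is with the replicate number as a term, 2, 0 and 4 members were called in the steps from d0 to d3F and d3F to d5FS and over the whole course, and 1, 9 and 37 ribosome assembly genes, 0, 3 and 8 RNA polymerase I genes and 0, 1 and 12 mitochondrial ribosomal protein genes were called lower. At an unadjusted p under 0.05 (edgeR) that fit gave 4, 14 and 14 members, and 4135, 4016 and 7088 of all genes. Without the fold minimum, 1 member was higher and 5 were lower over the whole course at an adjusted p under 0.05 (edgeR). Nothing in the labels ties equal numbers to a shared culture or day. Deviations of same-numbered samples correlated at 0.314, 0.278 and 0.324 in these comparisons. Of 18 alternatives for each count of called members, 16, 18 and 13 gave a count within 1.5 times the reported one in the same order. Depth limits Rpl3l, Rpl10l and Rpl39l, and for the other members the spread between 2 replicates sets the precision.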
